A study of Homo sapiens with 6 samples.

Results

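The genes of the HIST clusters, which encode the linker histone H1 and the core histones H2A, H2B, H3 and H4, were read in 22RV1 prostate cancer cells made to carry 1 of 2 miRNA vectors. Members were taken as the probes whose gene name in the array files starts with HIST1H, HIST2H, HIST3H or HIST4H, a choice that used no measured value. This gave 85 probes of 69 genes among 58201 probes and 43317 gene names on the array, and 71 probes of 60 genes were bright enough to test. The 9 MCM genes (14 probes, 12 tested) were set beside them.

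Core histones wrap DNA into nucleosomes and H1 binds the linker between them. Most HIST genes are switched on as cells copy their DNA, and their messengers end in a conserved stem-loop in place of a poly(A) tail, so that the stem-loop binding protein SLBP and the U7 particle process them rather than the usual polyadenylation machinery. MCM2 to MCM7 form the helicase that opens DNA at replication forks, and MCM genes are also most active around the start of DNA copying.

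22RV1 is an established human prostate cancer line that makes SPINK1, a secreted protease inhibitor. Stable cells were made with lentiviral pLemiR-338-5p, pLemiR-421 or the control vector pLemiR-RFP, and cells of all 3 kinds grew under puromycin. Each of 6 hybridisations, called arrays here, carried control RNA in Cy3 and RNA of 1 miRNA line in Cy5: 3 of the miR-338-5p line (1, 2 and 3) and 3 of the miR-421 line (pool, 1 and 2). What the pool holds is not stated, and the labels name no separate cultures, so p-values measure only the spread between these arrays. No array had the dyes swapped, so any dye bias enters both comparisons, and the control side is shared by both lines. Total RNA was given a poly(A) tail before oligo-dT labelling, which lets messengers without a tail of their own be read. All values below are log2 ratios of Cy5 over Cy3 unless said otherwise, so that 1 is a doubling in the miRNA line. In bulk RNA, a change in the share of cells that are copying DNA and a change in RNA per cell cannot be told apart.

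The miRNAs that define the groups are shown first, as RefSeq mature sequences with the seed, bases 2 to 8, in capitals.
miR-338-5p: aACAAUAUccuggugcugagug
miR-421: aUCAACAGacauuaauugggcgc

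The stem-loop was searched as 16 letters: a stem of 6 that starts with GG, pairs with the last 6 base by base, and encloses a loop of TTT and any letter. It lay whole inside 6 of the 85 member probes, 5 of them tested, and inside 7 of all 58201 probes, which is 0.012%. The windows below show where these probes hold the stem-loop, with the 16 letters in capitals. A longer messenger that reaches past the stem-loop holds it too, so these probes do not tell the forms apart.
HIST1H2AI: ggaaccaaaGGCTCTTTTCAGAGCCaccta
HIST1H2BE: aaacccaaaGGCTCTTTTCAGAGCCactca
HIST1H2BF: aatcccaaaGGCTCTTTTAAGAGCCa
HIST1H3H: atacccaaaGGCTCTTTTCAGAGCCaccca
HIST1H4K: tcaacaaaaGGCCCTTTTTAGGGCCcc
HIST2H3A: tatccaaaaGGCTCTTTTCAGAGCCacc

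The HIST1H2AI stem-loop probe was at 1.02, 1.1 and 0.67 in the miR-338-5p line and at 0.72, 0.23 and 0.71 in the miR-421 line (pool, 1 and 2, the order used throughout). It was above 0 on all 6 arrays and rose in both lines (adjusted p = 0.0168 and 0.0321, limma with Benjamini-Hochberg adjustment over all tested probes). The HIST1H4K stem-loop probe was at 0.41, 1.1 and 0.19 and then at 0.71, 1.35 and 0.56, above 0 on all 6 arrays, and rose in the miR-421 line (adjusted p = 0.0383 by limma), not in the miR-338-5p line (0.159). The probes of HIST1H2BE, HIST1H3H and HIST2H3A had means of 0.37, 0.16 and 0.15 in the miR-338-5p line and of 0.08, 0.12 and 0.04 in the miR-421 line, and none of these 3 passed the threshold of 0.05. The HIST1H2BF probe was not bright enough to test.

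Histone probes were mostly higher than control in both lines. Of 71 tested, 38 rose in the miR-338-5p line, which is 53.5%, where 9% of all tested probes were called in either direction and 3.79% higher. There 0 fell, where 5.22% of all tested probes were called lower. For miR-421 24 rose, which is 33.8%, where 21.6% of all tested probes were called in either direction and 9.19% higher, and 0 fell, where 12.5% were called lower. At an unadjusted p under 0.05 by limma, 54 were higher and 1 lower in the miR-338-5p line, and 43 were higher and 2 lower in the miR-421 line. All 3 arrays were above 0 for 59 histone probes in the miR-338-5p line and for 54 in the miR-421 line, against 23.4% and 28.8% of all tested probes.

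The median over the 71 histone probes was 0.42, 0.71 and 0.33 on the miR-338-5p arrays and 0.36, 0.17 and 0.33 on the miR-421 arrays. Array 2 of the miR-338-5p line was the highest of all 6 for 53 of the 71 probes, and array 1 of the miR-421 line was the lowest for 39. The median over all tested probes was near 0 on each array, between -0.02 and 0.01. Over the means of each line the histone median was 0.52 and 0.33, and the MCM median was -0.34 and -0.25. The histone median lay above the MCM median on every one of the 6 arrays.

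**Figure D1:**
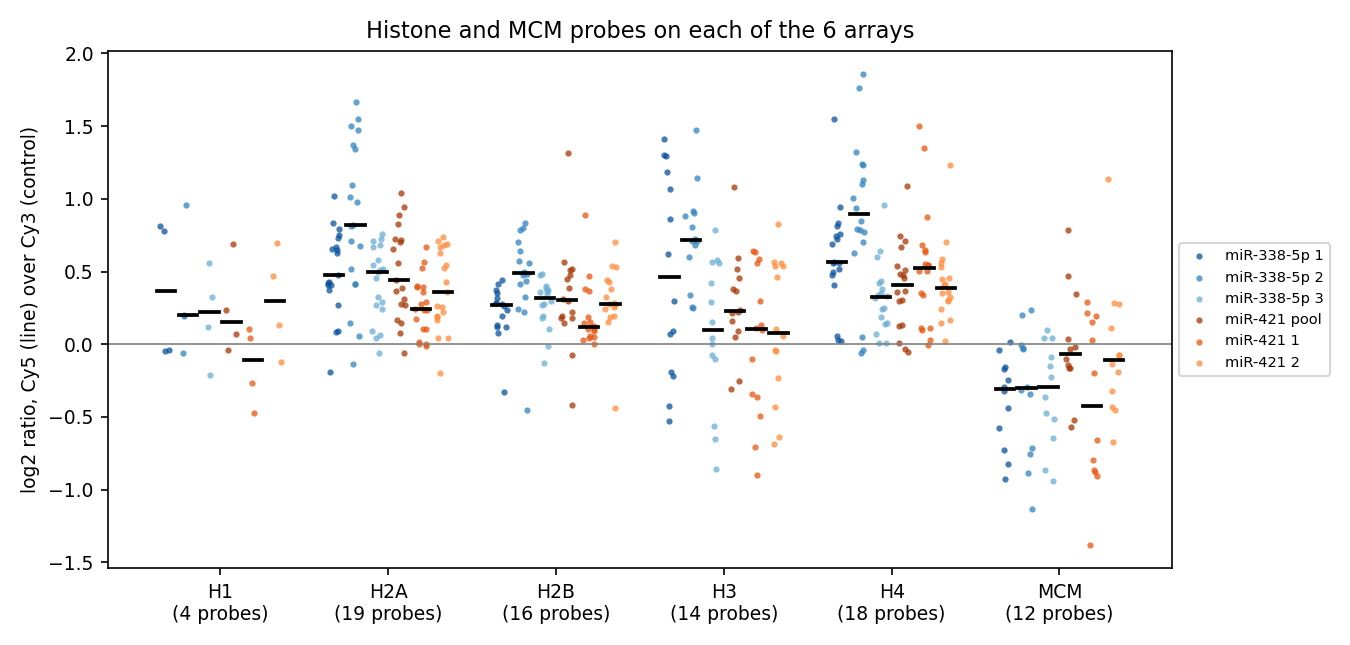
Log2 ratio of each tested probe (points) on each of the 6 arrays, by histone type and for MCM, with black bars for the median of the probes on that array. The H2A, H2B, H3 and H4 medians lie above 0 on all 6 arrays and the MCM medians lie below 0 on all 6. The H1 median is below 0 only on array 1 of the miR-421 line, at -0.11.

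The counts of calls rested on single arrays far more than the direction did. Without array 1, 2 or 3 of the miR-338-5p line, 3, 5 and 9 histone probes passed in that line, and without the pool or array 2 of the miR-421 line, which enter through the shared spread, 15 and 5 passed. For miR-421 13 passed without array 1 of the miR-338-5p line and 16 without its array 3. There 1 passed without the pool, 7 without array 1 (6 of them higher) and 0 without array 2, where 29 had an unadjusted p under 0.05 by limma. The median stayed between 0.37 and 0.57 in the miR-338-5p line and between 0.31 and 0.33 in the miR-421 line over these 6 fits.

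The prostate luminal markers KLK2, KLK3, FOXA1, HOXB13, TMPRSS2, KRT8 and KRT18 were well above background, and the 3 probes of PECAM1, an endothelial gene, were not on any array in either dye. COL1A1, a fibroblast collagen gene, was well above background on all 6 arrays in both dyes, with ratios from -0.01 to 0.30. Of 5 probes of PTPRC, a leukocyte gene, 2 were bright enough to test, the brighter one with ratios from -0.11 to 0.27. VIM, a mesenchymal gene, was at 0.02, 2.39 and -0.17 in the miR-338-5p line and at -2.05, -2.08 and -2.67 in the miR-421 line, so that it was highest on the array where most histone probes were highest. The part of these genes in the result was not tested. Between 41.9% and 48.3% of gene spots were well above background, with no saturated histone spot.

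H2A and H4 carried most of the calls. Among H2A probes, 15 of 19 rose in the miR-338-5p line and 9 in the miR-421 line, with medians of 0.58 and 0.33. Among H4 probes, 12 of 18 rose in the miR-338-5p line and 8 in the miR-421 line, with medians of 0.62 and 0.42. H2B showed smaller shifts, with 6 of 16 and 4 of 16 higher and medians of 0.36 and 0.32. H3 was split, with 5 of 14 and 3 of 14 higher and medians of 0.38 and 0.09. For the linker histone H1, 0 of 4 passed in either line by limma (2 and 1 at an unadjusted p under 0.05), with medians of 0.31 and 0.10. Between these types the difference itself was not tested.

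HIST1H4C, an H4 gene (NM_003542, probe at chr6:26104468-26104527, hg19), had the highest mean of any tested histone probe in both lines. It was at 1.55, 1.86 and 0.96 in the miR-338-5p line and at 1.09, 0.65 and 1.23 in the miR-421 line. It was above 0 on all 6 arrays, and the lines overlapped. The means were 1.46 ± 0.46 (SD, n = 3; adjusted p = 0.0146 by limma) and 0.99 with an adjusted p of 0.0198, and the second probe of the gene had means of 1.08 and 0.49. Its call was lost in 4 of 17 alternatives in each line. In the miR-338-5p line these were without array 1 or array 2 of that line, on its own 3 arrays and in the authors' deposited table. In the miR-421 line they were without the pool or array 2, with the image software's ratio and in the authors' deposited table. Adjusted p ran from 0.00334 to 0.118 over all alternatives in both lines. Calls of the other named histone genes that rose were lost in 4 to 11 of the 17 alternatives in the miR-338-5p line and in 7 to 15 in the miR-421 line.

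Other H4 genes had smaller shifts. HIST1H4E was at 0.81, 0.70 and 0.60 in the miR-338-5p line and at 0.01, 0.50 and 0.41 in the miR-421 line. HIST1H4A was at 0.56, 0.79 and 0.38 and then at 0.12, 0.35 and 0.25. Both rose in the miR-338-5p line (adjusted p = 0.0200 and 0.0218 by limma), all 3 of its arrays lay above all 3 of the miR-421 line, and neither passed in the miR-421 line (adjusted p = 0.0858 and 0.109). These HIST1H4A values are those of the probe at base 274. The other tested HIST1H4A probe, at base 300 and overlapping the first, had means of -0.002 and -0.006. It passed in neither line (adjusted p = 0.988 and 0.942 by limma). It was dim, with Cy3 well above background on 3 of the 6 arrays and Cy5 on 4.

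The overlapping probes of HIST1H4J and HIST1H4K, named after their values were seen, are 97.6% identical over 41 bases. Both were highest on array 1 of the miR-421 line, at 1.5 and 1.35, while their means were 0.65 and 0.57 in the miR-338-5p line. Across the family 20 pairs of probes of different genes matched at 85% or more over at least 40 of 60 bases, and 24 of the 71 tested probes were in such a pair. Signal of such probes may be shared between genes.

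Most H2A genes rose in the miR-338-5p line. HIST2H2AB (NM_175065, chr1:149859185-149859244, hg19) was at 0.79, 1.55 and 0.68 in the miR-338-5p line and at 0.70, 0.56 and 0.67 in the miR-421 line. HIST1H2AH was at 0.75, 1.47 and 0.76 and then at 1.04, 0.36 and 0.69. HIST1H2AM was at 0.73, 1.67 and 0.55 and then at 0.82, 0.40 and 0.53.

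In each of these 3 genes array 2 of the miR-338-5p line stood highest and all 6 values were above 0. The means in the miR-338-5p line were 1.01 ± 0.47, 1.00 ± 0.41 and 0.98 ± 0.60 (SD, n = 3), with adjusted p of 0.0238, 0.0313 and 0.0471 by limma. Means in the miR-421 line were 0.65, 0.70 and 0.58, and HIST1H2AM did not pass there (adjusted p = 0.107). The other tested HIST1H2AM probe had means of 0.39 and 0.27 and rose in the miR-338-5p line alone. HIST1H2AJ and HIST1H2AK, whose probes match each other at 87.9%, were also highest on array 2 of the miR-338-5p line. They had means of 0.92 and 0.91 and then of 0.66 and 0.66, and rose in both lines. HIST1H2AE had lower values, at 0.43, 0.71 and 0.52 and then at 0.27, 0.24 and 0.22, and rose in both lines (adjusted p = 0.0132 and 0.0499). In the miR-421 line that call was lost in 15 of 17 alternatives, with an adjusted p up to 0.376. HIST2H2AC, an H2A gene chosen for its bright probe, had means of 0.88 and 0.62 and rose in the miR-338-5p line (adjusted p = 0.0413), not in the other (0.0602).

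**Figure D2:**
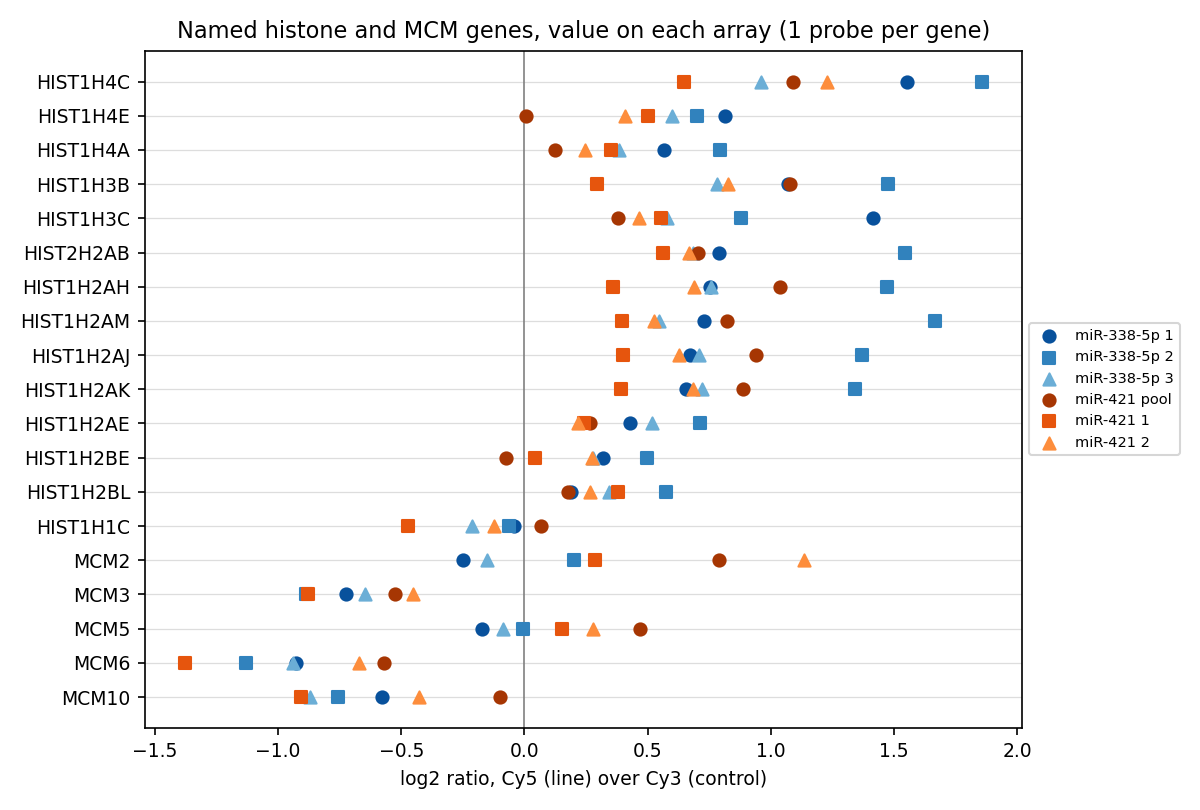
Log2 ratio on each of the 6 arrays for the named histone genes and 5 MCM genes, 1 probe per gene (the one with the highest mean signal). HIST1H4C lies between 0.65 and 1.86, HIST1H1C lies near 0, and MCM3 and MCM6 lie below 0 on all 6 arrays.

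Among H2B genes, HIST1H2BL had the brightest probe and was at 0.19, 0.57 and 0.34 and then at 0.18, 0.38 and 0.27. It was above 0 on all 6 arrays and did not pass in either line (adjusted p = 0.0515 and 0.0668 by limma). HIST1H2BE was at 0.32, 0.50 and 0.28 in the miR-338-5p line and at -0.08, 0.04 and 0.28 in the miR-421 line, and did not pass in either (adjusted p = 0.0515 and 0.534). HIST3H2BB reached 1.31 on the miR-421 pool against 0.07 to 0.22 on the other 5 arrays.

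Of the 14 tested H3 probes, 7 were above 0 on all 6 arrays and 7 were mixed. HIST1H3B (NM_003537, chr6:26031922-26031981, hg19) was at 1.07, 1.48 and 0.78 in the miR-338-5p line and at 1.08, 0.29 and 0.83 in the miR-421 line, and rose in both (adjusted p = 0.0240 and 0.0383 by limma). HIST1H3C was at 1.41, 0.88 and 0.58 and then at 0.38, 0.56 and 0.46. It rose in the miR-338-5p line (adjusted p = 0.0222), not in the miR-421 line (0.0744), and its lines did not overlap. HIST1H3J was at -0.22, 0.60 and -0.56 and then at 0.05, -0.49 and -0.43, so that its highest value was on array 2 of the miR-338-5p line, and it passed in neither.

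The HIST1H3B and HIST1H3J probes read the same stretch of the H3 message and are shown because they gave unlike values; 12 of the 59 letters compared differ, in capitals, and all 12 fall at the same place in successive groups of 3 letters. HIST1H3I and HIST1H3E form a like pair, with 9 of 54 letters differing. HIST1H3J, HIST1H3I, HIST1H3E, HIST1H3A and HIST3H2BB were named after their values were seen.
HIST1H3B: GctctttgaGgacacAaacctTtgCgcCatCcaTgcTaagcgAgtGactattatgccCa
HIST1H3J: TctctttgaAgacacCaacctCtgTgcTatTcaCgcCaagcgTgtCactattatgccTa
HIST1H3I: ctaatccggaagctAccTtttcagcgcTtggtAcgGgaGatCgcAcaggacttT
HIST1H3E: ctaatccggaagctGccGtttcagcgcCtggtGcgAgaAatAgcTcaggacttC

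HIST1H3I was at 1.3, 0.91 and 0.42 and then at 0.46, 0.64 and 0.56. HIST1H3E was at -0.42, 0.34 and -0.65 and then at -0.26, -0.70 and -0.64. HIST1H3I rose in the miR-338-5p line (adjusted p = 0.0290 by limma), and HIST1H3E passed in neither line. HIST1H3A, at -0.53, 0.25 and -0.86 and then at -0.31, -0.90 and -0.68, had the lowest mean of the histone probes in both lines.

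**Figure D3:**
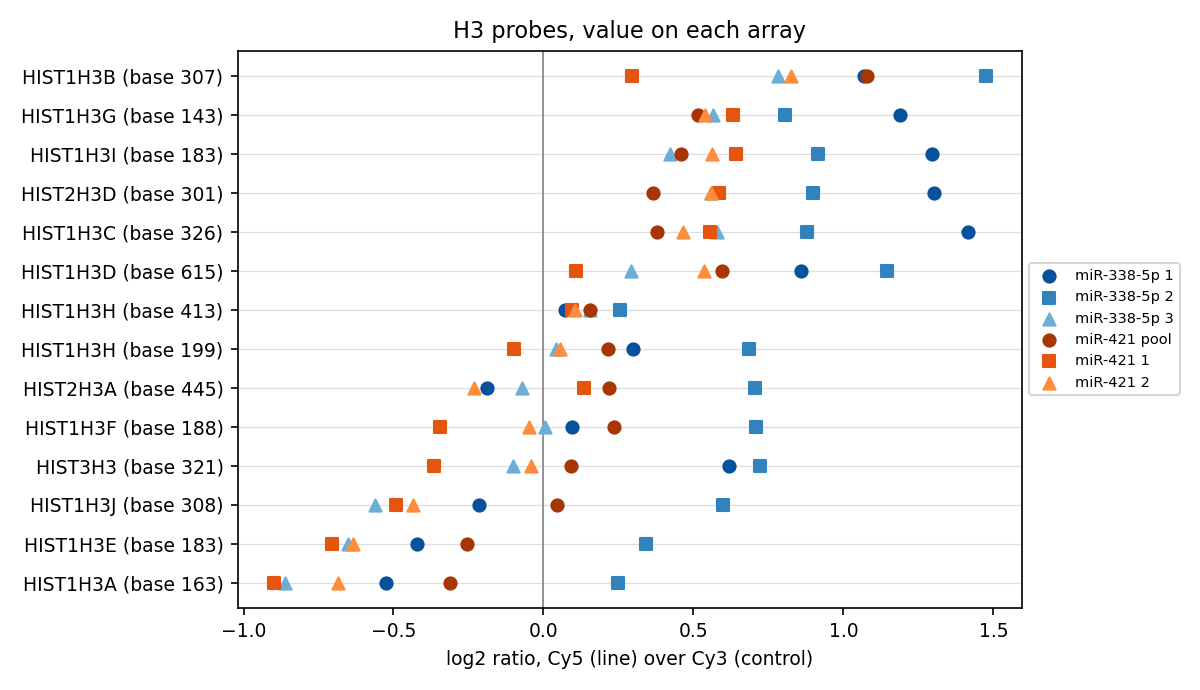
Log2 ratio of the 14 tested H3 probes on each of the 6 arrays, ordered by the mean in the miR-421 line, with the start of each probe in its transcript in parentheses. The upper probes are above 0 on all 6 arrays, and HIST1H3J, HIST1H3E and HIST1H3A are above 0 on array 2 of the miR-338-5p line.

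HIST1H1C, the linker histone gene with the brightest H1 probe, was at -0.04, -0.06 and -0.21 and then at 0.07, -0.47 and -0.12. It did not pass in either line (adjusted p = 0.598 and 0.285 by limma). Of the 4 genes known from testis, HIST1H1T and HIST1H2BA were not bright enough to test. HIST1H2AA was tested, at 0.02 to 0.14 over the 6 arrays, with Cy3 above background on 1 array and Cy5 on 2 in each line. HIST3H3 was at 0.62, 0.72 and -0.10 and then at 0.09, -0.37 and -0.04, and passed in neither line (adjusted p = 0.193 and 0.707).

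By place, the HIST1 cluster lies on chromosome 6, where probes fall in 2 stretches from 25726563 to 26285556 and from 27100318 to 27861647 (hg19). In the first stretch 18 of 35 tested probes rose in the miR-338-5p line and 11 in the miR-421 line, and in the second 13 and 10 of 26 did. For HIST2 on chromosome 1, 6 of 7 and 3 of 7 rose, with medians of 0.65 and 0.50. For HIST3, also on chromosome 1, 1 of 3 and 0 of 3 rose by limma (1 and 1 at an unadjusted p under 0.05). The only HIST4 gene, HIST4H4 on chromosome 12, was not bright enough to test. The other 13 untested probes were of HIST1H1A, HIST1H1T, HIST1H2AG, HIST1H2AI, HIST1H2APS1, HIST1H2BA, HIST1H2BF, HIST1H4G, HIST2H2BA, HIST2H2BE and HIST2H2BF, and HIST1H2AG, HIST1H2AI and HIST2H2BE have another probe that was tested.

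Some HIST genes also make a longer messenger with a poly(A) tail, which reaches past the stem-loop. Core histone probes starting at or past base 500 of the transcript, counted from 0 as the array files give it, were set apart after the values had been seen, leaving aside HIST1H3D, whose probe at base 615 reads the stretch of the H3 message that the HIST1H3A probe reads at base 163. Of 8 such probes 3 were tested and 0 of them passed in either line by limma (1 and 0 at an unadjusted p under 0.05), with medians of -0.13 and -0.05. Of 64 tested core probes before base 500, 38 and 24 rose, with medians of 0.53 and 0.35. The 3 tested probes past base 500 had GC contents from 36.7% to 38.3%, against a median of 53.3% for these 64. The part of GC content in this contrast was not tested.

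All 3 late probes had an early probe of the same gene on the array. The HIST1H2BK probe at base 660 was at -0.33, -0.45 and -0.13 and then at -0.42, 0.05 and -0.44, while the one at base 141 was at 0.42, 0.84 and 0.48 and then at 0.52, 0.10 and 0.54. The late probes of HIST1H2AC and HIST1H4H had means of -0.13 and -0.01 in the miR-338-5p line, against 0.48 and 0.59 for their brightest early probes. The HIST1H4H late probe was dim, with Cy3 well above background on 0 of the 6 arrays and Cy5 on 3. In each of these 3 genes an early probe rose in the miR-338-5p line and the late one did not, and HIST1H2AC has another early probe, at base 30, that did not pass either (mean 0.29, adjusted p = 0.0806 by limma). Calls also differed between probes of 1 gene where none was late. Of 10 genes with several tested probes, 6 had some but not all called in the miR-338-5p line, and in HIST1H4A, HIST1H4K and HIST1H4L all the probes start before base 500. The uncalled probes of HIST1H4A and HIST1H4L were dim, with Cy3 well above background on 3 and 2 of the 6 arrays. That of HIST1H4K was above it on all 6 in both dyes. Of the 8 genes listed as giving tailed messengers as well, 6 of 12 tested probes rose in the miR-338-5p line and 3 in the miR-421 line.

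**Figure D4:**
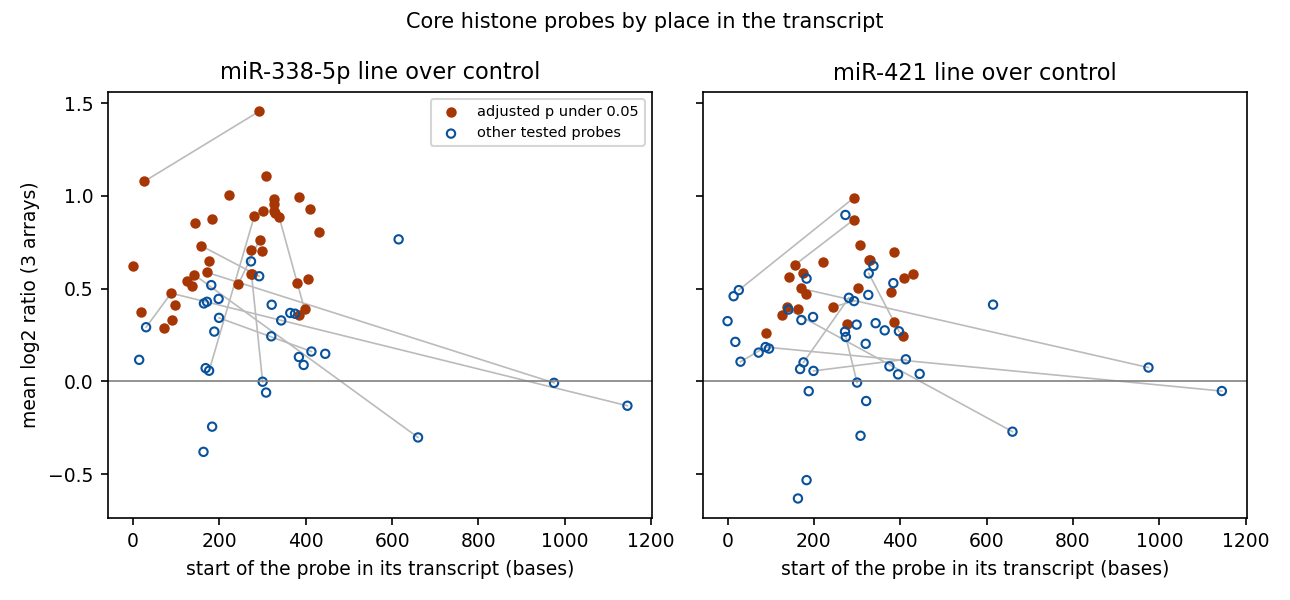
Mean log2 ratio of each tested core histone probe in each line against the start of the probe in its transcript, in bases; filled points passed an adjusted p of 0.05 and grey lines join probes of 1 gene. The 3 probes at 660 bases or further lie near or below 0, and HIST1H3D, at 615, lies at 0.77 and 0.41.

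Between the miRNA lines, 0 of 71 histone probes differed by limma, against 0.0473% of all tested probes called. At an unadjusted p under 0.05, 3 did, against 13.7% of all tested probes. The median difference, miR-338-5p minus miR-421, was 0.19, with 63 probes above 0, and without array 2 of the miR-338-5p line it was 0.06, with 45 above 0. With all arrays, 8 histone probes had all 3 miR-338-5p arrays above all 3 miR-421 arrays while 0 had the reverse order, against 10.1% and 9.73% of all tested probes. The 4 smallest p-values were those of HIST1H2AE, HIST1H4E, HIST1H4A and HIST1H2BE, with differences of 0.31, 0.40, 0.34 and 0.28 and a lowest adjusted p of 0.254. The 95% interval of the difference ran from 0.08 to 0.54 for HIST1H2AE and from -0.18 to 1.11 for HIST1H4C. A p above the threshold does not show that the lines act alike.

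**Figure D5:**
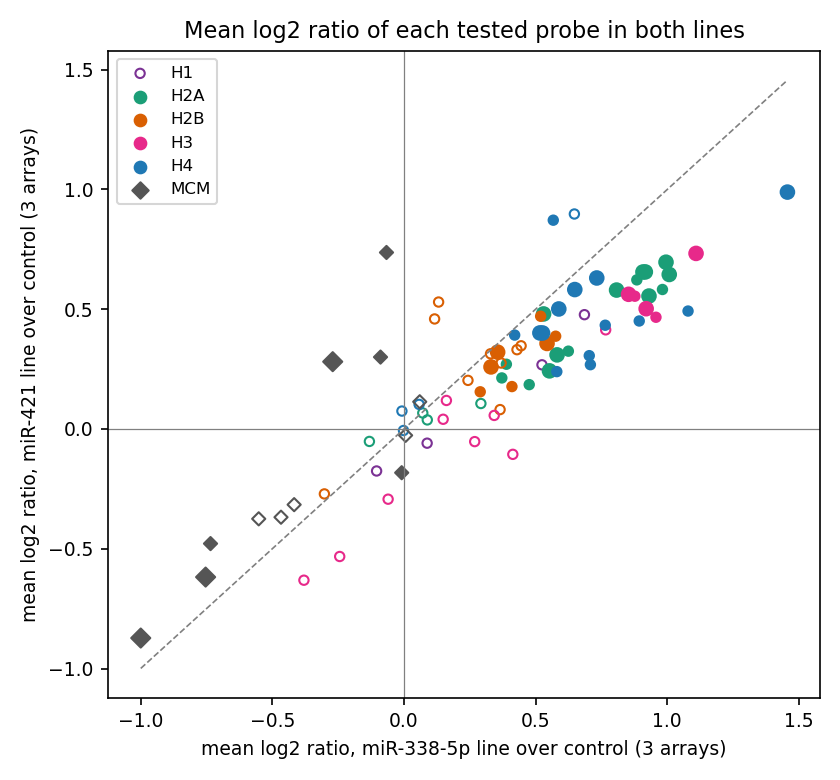
Mean log2 ratio in the miR-421 line against that in the miR-338-5p line for each tested probe (circles for histones by type, diamonds for MCM); filled marks passed in 1 line, larger filled marks in both, and the dashed line marks equal values. Of 71 histone probes, 63 are above 0 in the miR-338-5p line and 61 in the miR-421 line.

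MCM probes were mostly lower than control, but their calls in the miR-421 line were split. Of 12 tested, 0 rose (0 also at an unadjusted p under 0.05 by limma) and 4 fell in the miR-338-5p line, and 3 rose and 3 fell in the miR-421 line. The 4 that fell are 33.3%, where 5.22% of all tested probes did. In the miR-421 line 25% rose and 25% fell, where 9.19% and 12.5% of all tested probes did. There 4 of the 12 were above 0 on all 3 arrays and 7 were below 0 on all 3. MCM3 was at -0.72, -0.89 and -0.65 in the miR-338-5p line and at -0.52, -0.88 and -0.45 in the miR-421 line. MCM6 was at -0.93, -1.13 and -0.94 and then at -0.57, -1.38 and -0.67. Both helicase subunits were below 0 on all 6 arrays and fell in both lines (adjusted p = 0.0148 and 0.0126 for MCM3, 0.0223 and 0.0175 for MCM6, by limma).

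MCM10, which helps to activate the helicase, fell in the miR-338-5p line (mean -0.73, adjusted p = 0.0396 by limma) and had a mean of -0.48 in the other (0.0696). MCM2 was at -0.25, 0.20 and -0.15 in the miR-338-5p line and at 0.79, 0.29 and 1.13 in the miR-421 line, where it rose (adjusted p = 0.0311). MCM4, MCM7 and MCM8 did not pass in either line, with means of -0.55, -0.42 and -0.47 in the miR-338-5p line and of -0.38, -0.32 and -0.37 in the miR-421 line for their brightest probes. The other tested MCM7 probe, well above background on all 6 arrays in both dyes, had means of 0.06 and 0.11 and passed in neither line. The brightest probe of MCM9 passed in the miR-421 line alone, but its Cy5 signal was not well above background on any of the 3 arrays there, so it is known only as at least 1.13-fold lower.

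Both MCM counts changed when single arrays were left out. With each array of the miR-338-5p line left out in turn, 0 passed in that line (5 at an unadjusted p under 0.05 by limma in each of the 3 fits). There 1 passed without array 2 of the miR-421 line and 7 without array 1 of that line. For miR-421 3 passed without array 1 or 3 of the miR-338-5p line, 3 without the pool and 0 without array 2. By limma, 7 MCM probes had an unadjusted p under 0.05 in that last fit. The MCM median in the miR-421 line was -0.10 without array 1 of that line. The calls of MCM3 were lost in 7 and 4 of 17 alternatives and those of MCM6 in 6 and 3, in the miR-338-5p and miR-421 lines, that of MCM10 in 10 and that of MCM2 in 8. The MCM5 probes, which had opposite signs in the 2 lines, are described in the closing section.

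The genes of proteins that act on histone messengers or on histones came from 2 lists. Of 21 tested probes of histone gene transcription and processing factors, 0 rose (2 at an unadjusted p under 0.05 by limma) and 1 fell in the miR-338-5p line, and 2 rose and 7 fell in the miR-421 line. The 1 that fell is 4.8% of the list, where 5.22% of all tested probes did, and the 2 that rose are 9.5%, where 9.19% did. The 7 that fell in the miR-421 line are 33.3%, where 12.5% did. Lower at an unadjusted p under 0.05 by limma were 10 of the 21 in the miR-338-5p line and 11 in the miR-421 line. The medians of the list were -0.21 and -0.32. COIL, which encodes coilin of the Cajal body, fell in both lines, with means of -0.69 and -1.29 (adjusted p = 0.0214 and 0.00317 by limma). SLBP was at -0.69, -0.99 and -0.50 and then at -0.35, -1.37 and -0.42, below 0 on all 6 arrays, without passing (adjusted p = 0.0879 and 0.0599). NPAT, the transcriptional co-activator of histone genes, had means of -0.21 and -0.32 and fell in the miR-421 line (adjusted p = 0.169 and 0.0436).

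Of 25 tested probes of histone chaperones, 0 rose in either line (0 and 1 at an unadjusted p under 0.05 by limma), 8 fell in the miR-338-5p line and 10 in the miR-421 line. These are 32.0% and 40.0% of the list, where 5.22% and 12.5% of all tested probes fell. Lower at an unadjusted p under 0.05 by limma were 15 and 11 of the 25. NASP, a chaperone of H3, H4 and H1, was at -1.33, -1.94 and -1.62 and then at -1.3, -1.88 and -1.09, and fell in both (adjusted p = 0.0104 and 0.00733 by limma). SUPT16H, a subunit of FACT, fell in both as well, with means of -0.72 and -0.65.

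Of 43 tested probes of other S phase genes, 0 rose (1 at an unadjusted p under 0.05 by limma) and 10 fell in the miR-338-5p line, and 2 rose and 16 fell in the miR-421 line, with medians of -0.34 and -0.33. Those that fell are 23.3% and 37.2% of the list, where 5.22% and 12.5% of all tested probes fell. Lower at an unadjusted p under 0.05 by limma were 25 and 22 of the 43. The 2 that rose are 4.7%, where 9.19% did. PCNA, the sliding clamp, fell in both, with means of -0.72 and -0.92 at the probe starting at base 937 of the transcript. Of 16 tested probes of histone variant genes outside the clusters, 1 rose in the miR-338-5p line and 2 rose and 1 fell in the miR-421 line. Those that rose are 6.2% and 12.5% of these probes, near the 3.79% and 9.19% of all tested probes. The 1 that fell is 6.2%, where 12.5% did. H1F0, a linker histone of resting cells, was at 1.97, 1.12 and 0.34 and then at 1.48, 1.23 and 1.5, and rose in the miR-421 line (adjusted p = 0.0588 and 0.0223). H2AFZ had means of -0.07 and -0.82 and fell in the miR-421 line (adjusted p = 0.807 and 0.0148).

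Base composition and messenger form are features the choice of members did not use. The median GC content of the tested histone probes was 53.3%, against 45% for all tested probes. A GC content inside the interquartile range of the histone probes was found for 6769 tested probes, with medians of 0.01 and 0.07. Of these, 244 rose in the miR-338-5p line (3.6%) and 951 in the miR-421 line (14%), where 3.79% and 9.19% of all tested probes did. Those that fell were 205 (3.0%) and 235 (3.5%), where 5.22% and 12.5% of all tested probes did. In the miR-421 line the histone calls, 33.8% higher and 0 lower, thus stand out less against probes of like GC content than against all tested probes. With the ratios corrected for GC content on each array, 39 and 13 histone probes passed, with medians of 0.51 and 0.26. Small noncoding RNA genes, picked after the values were seen as other transcripts that lack a tail of their own, had medians of 0.03 and 0.03 over 204 tested probes, of which 4 rose and 11 fell in the miR-338-5p line and 16 rose and 36 fell in the miR-421 line. Those that rose are 2.0% and 7.8%, where 3.79% and 9.19% of all tested probes did. Those that fell are 5.4% and 17.6%, where 5.22% and 12.5% did.

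Promoters were read because most tested histone probes were higher than control in both lines. All 69 genes were matched to current RefSeq names (GRCh38.p14), 62 had a promoter entry, and the 250 bases before the start were searched on both strands. The strings were CCAAT, the octamer ATTTGCAT, the H1 box AAACACA and, for the TATA box, TATAAA. The first of these was in 85.5% of histone promoters against 32.0% of all 35116, TATAAA in 66.1% against 10.7%, and the octamer was in 41.9% against 1.63%. The octamer was in 11 of 15 H2A and 14 of 18 H2B promoters, in 1 of 11 for H3 and in 0 of 12 for H4. The H1 box string was in 6 of 6 for H1 and in 0 of the other types, against 4.82% of all promoters. No octamer match overlapped a CCAAT match, and 13 pairs of histone windows overlap each other.

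CCAAT was in 3 of 12 H4 promoters and in 6 of 7 MCM promoters, TATAAA in 1 of 7 MCM promoters and the octamer in 0 of 7. The last 140 bases before the start are shown for members of different type and for MCM3 and MCM6, to let the histone and MCM promoters be compared, with matches on either strand in capitals (RefSeq, GRCh38.p14). A match is a string of letters and not a measured binding site.
HIST1H3B (H3C2), chr6:26032100-26032239, - strand: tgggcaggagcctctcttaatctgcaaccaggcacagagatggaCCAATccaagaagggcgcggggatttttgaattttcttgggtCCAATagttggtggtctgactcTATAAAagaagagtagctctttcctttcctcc
HIST2H2AB (H2AC21), chr1:149887966-149888105, - strand: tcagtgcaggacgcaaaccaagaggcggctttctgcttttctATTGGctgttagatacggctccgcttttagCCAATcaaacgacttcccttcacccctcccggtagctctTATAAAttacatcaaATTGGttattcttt
HIST1H2AJ (H2AC14), chr6:27814778-27814917, - strand: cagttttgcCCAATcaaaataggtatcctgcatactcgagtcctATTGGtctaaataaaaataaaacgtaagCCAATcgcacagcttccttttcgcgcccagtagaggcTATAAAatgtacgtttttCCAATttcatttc
HIST1H2BE (H2BC6), chr6:26183621-26183760, + strand: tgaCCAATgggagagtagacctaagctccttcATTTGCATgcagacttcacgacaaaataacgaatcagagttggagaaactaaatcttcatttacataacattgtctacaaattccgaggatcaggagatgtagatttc
HIST1H1C (H1-2), chr6:26056471-26056610, - strand: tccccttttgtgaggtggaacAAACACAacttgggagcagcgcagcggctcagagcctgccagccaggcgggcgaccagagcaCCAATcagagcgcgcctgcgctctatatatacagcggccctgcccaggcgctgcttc
HIST1H4E (H4C5), chr6:26204470-26204609, + strand: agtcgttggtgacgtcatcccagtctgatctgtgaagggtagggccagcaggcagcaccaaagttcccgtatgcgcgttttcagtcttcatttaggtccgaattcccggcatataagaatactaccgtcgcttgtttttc
MCM3 (MCM3), chr6:52284743-52284882, - strand: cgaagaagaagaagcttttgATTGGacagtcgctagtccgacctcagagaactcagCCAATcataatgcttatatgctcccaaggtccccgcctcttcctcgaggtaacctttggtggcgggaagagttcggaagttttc
MCM6 (MCM6), chr2:135876444-135876583, - strand: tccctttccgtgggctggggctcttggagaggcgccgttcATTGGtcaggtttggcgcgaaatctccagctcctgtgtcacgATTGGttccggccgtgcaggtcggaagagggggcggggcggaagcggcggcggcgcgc

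HIST1H3B, HIST2H2AB and HIST1H2AJ, which rose in both lines, carry CCAAT and TATAAA in the stretch shown, and HIST1H4E, which rose in the miR-338-5p line, carries none of the 4 strings there. HIST1H1C, which did not pass in either line, carries AAACACA and CCAAT, and MCM3 and MCM6, which fell in both, carry CCAAT without TATAAA. Some histone genes that rose also carry CCAAT without TATAAA in the 250 bases searched. Among them are HIST1H3C, which rose in the miR-338-5p line, and HIST1H3G, HIST1H2AD and HIST1H2AK, which rose in both. Other histone genes carry both CCAAT and TATAAA in the 250 bases and passed in neither line, among them HIST1H3A, HIST1H3E, HIST2H3A and HIST3H3. Whether any of the strings goes with the direction of change was not tested.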

How the data were processed

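Agilent Feature Extraction 11.5.1.1 made the scanner files, per the file headers, and the deposited intensity values are the mean and background signal of each dye on a linear scale, not normalized. The deposited series table holds a log2 value for each gene name, Cy5 relative to Cy3; how the authors normalized and joined these is not given in the sources used here. The image software's log10 ratio in the deposited files served as an alternative.

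Signals were corrected with normexp (offset 50) and normalized by loess within each array, control spots at weight 0, in limma 3.58.1 (R 4.3.3). Outlier spots were left out and spots of a probe averaged. To be tested, a probe had to be well above background on 3 or more of the 6 arrays, in Cy3, Cy5 or both. Group means against 0 and their difference were fitted over all 27503 such probes, with Benjamini-Hochberg adjustment and a threshold of 0.05, and the fit was tested on simulated data. The number of arrays limits the precision.

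Named are up to 6 histone genes with the highest and lowest means among those called with 1 sign on 3 arrays per line, the 4 with the smallest p between lines, the brightest gene of each type, the testis genes and MCM2 to MCM10, each by its brightest probe. Members and gene lists were chosen with earlier results of these data known. Probe positions are hg19, per the file headers; promoters and miRNAs are RefSeq GRCh38.p14. Alternatives changed the background correction, normalization, filter, outlier rule, variance model, arrays used, GC content, probes per gene and source table.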

Additional observations from a re-analysis of the deposited data

Results flagged for a closer look

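The 2 tested MCM5 probes had opposite signs in the 2 lines on every array, below 0 on all 3 miR-338-5p arrays and above 0 on all 3 miR-421 arrays. The probe at base 1736 was at -0.29, -0.29 and -0.23 and then at 0.34, 0.22 and 0.28, a difference (miR-338-5p minus miR-421) of -0.55 with an adjusted p of 0.0765 by limma. The probe at base 2169 was at -0.17, -0.01 and -0.09 and then at 0.47, 0.15 and 0.28, a difference of -0.39 with an adjusted p of 0.220. Against control, the probe at base 1736 fell in the miR-338-5p line and rose in the miR-421 line (adjusted p = 0.0335 and 0.0180 by limma), and the probe at base 2169 passed in the miR-421 line alone (0.0389), a call lost in 14 of 17 alternatives. Neither difference between the lines passed the threshold. MCM5 encodes a subunit of the replicative helicase, and the probes of MCM3 and MCM6 named in the report were below 0 on all 6 arrays.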

How the results depend on the processing

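The median of the histone probes was above 0 under all 18 alternatives run in each line, and 84.5% to 92.8% (miR-338-5p) and 82.4% to 88.7% (miR-421) of them had a positive estimate, while the counts of calls moved. For histone probes in the miR-338-5p line the count was 22 with the image software's ratio, 19 with no filter on dim probes, 5 with median centring (4 higher), 2 from the authors' table, and 0 when the line was fitted on its own 3 arrays, where 53 had an unadjusted p under 0.05 by limma. In the miR-421 line it was 9 with median centring (8 higher), 7 with no filter, 13 with the GC correction, an alternative chosen after seeing the data, and 6 from the authors' table. The histone median in the miR-338-5p line was 0.85 with local background subtracted, 0.89 with the image software's ratio and 0.81 in the authors' table. In the miR-421 line it was 0.64, 0.44 with no background correction, 0.71 and 0.58. For MCM in the miR-338-5p line the count was 2 with background subtracted, 1 with the image software's ratio, 1 on its own arrays, and 0 with median centring and in the authors' table, where 6 and 4 had an unadjusted p under 0.05 by limma (4 passed as reported). In the miR-421 line 3 passed with that ratio, 1 on its own arrays, 1 in the authors' table and 0 with median centring (5 unadjusted). The MCM median in the miR-338-5p line was -0.33 with background subtracted, -0.36 with the image software's ratio, -0.44 under median centring, -0.18 with no filter, -0.44 with the stricter filter, -0.36 with the GC correction, -0.47 with 1 probe per gene (also chosen after seeing the data) and -0.50 in the authors' table. In the miR-421 line it was -0.13 under median centring, -0.10 with no filter, -0.15 with the GC correction and -0.40 with the image software's ratio, against -0.25 as reported. The histone difference between the lines was 0.10 under median centring, against 0.19. The cause of these shifts was not tested.

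Leaving out each array in turn gave 3 to 40 histone calls in the miR-338-5p line and 0 to 31 in the miR-421 line, and 0 to 7 and 0 to 5 MCM calls. The MCM median ran from -0.34 to -0.30 in the miR-338-5p line and from -0.33 to -0.10 in the miR-421 line. Without array 2 of the miR-338-5p line, 2 of the 31 calls in the miR-421 line were lower. With the replicate block on arrays 1 and 2 of both lines, 0 histone and 0 MCM probes differed between the lines, 17 and 2 at an unadjusted p under 0.05 by limma, with a median histone difference of 0.30. Same-numbered arrays had correlations of -0.14 and -0.21 in their deviations from the line means, and arrays 1 and 2 paired across numbers had 0.04 and 0.12. What the numbers stand for is not stated. These few correlations cannot show whether same-numbered arrays share anything more than a number. For the named genes, 208 values lost the threshold, 24 gained it and 0 reversed, out of 1320.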
